A study of Homo sapiens with 12 samples.

Results

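The T-cell receptor complex and its signalling genes were followed in 4 established human cell lines of ALCL (anaplastic large cell lymphoma), a lymphoma of T-cell origin. The genes were chosen by symbol. The list held 42 symbols, of which CD45 is the protein name of PTPRC, so it covered 41 genes. Of these, 40 were measured among the 18417 named genes of the arrays, and GRAP2 was not analysed here. The groups were side population (SP) and main population (MP) cells of the lines DEL, Karpas299, SUPM2 and SUDHL-1. SP cells pump out a Hoechst DNA dye and MP cells keep it. All lines were grown to logarithmic phase in RPMI medium with serum, stained with the dye and sorted by flow cytometry. DEL, Karpas299 and SUPM2 each gave 1 SP and 1 MP array. SUDHL-1 gave 3 SP and 3 MP arrays, 12 arrays in all. These lines are known to carry the NPM1-ALK fusion, and each stands for 1 patient's tumour only. The study describes triplicate sorts, and the labels mention no separate cultures, so p-values measure the spread between these arrays, which may be technical. The question was which parts of the receptor pathway each line had kept, and whether SP and MP cells differed in them.

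The T-cell receptor binds peptide on MHC molecules through its variable chains and signals through the CD3 gamma, delta and epsilon chains and the zeta chain, encoded by CD247. The co-receptors CD4 and CD8 bring the kinase LCK to the complex. LCK phosphorylates the CD3 and zeta tails, the kinase ZAP70 docks there and phosphorylates the adaptors LAT and LCP2 (SLP-76), and calcium, RAS and NF-kB signalling follow. ALCL is known for lacking much of this machinery although its cells keep rearranged T-cell receptor genes.

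The values were log2 signals per gene, and a difference of 1 is a doubling of signal. Probe sets differ in affinity, so differences were tested only within a gene, between arrays. The values carry no detection call. A background mark was therefore set on each array at the 95th percentile of the signals of 361 olfactory receptor genes. These genes are mostly silent in blood cells. The mark lay at 4.91 to 5.20 on the arrays of DEL, Karpas299 and SUPM2 and at 4.38 to 4.68 on those of SUDHL-1. The mark is a rough guide. It sets a gene beside other genes, so probe affinity affects which genes lie above it. A gene a little above it may still carry only unspecific signal. Array medians over all probe sets were 5.24 to 5.35 in the first 3 lines and 4.83 to 5.0 in SUDHL-1. The SUDHL-1 arrays stood apart in these values, and a difference in array processing cannot be told apart from the line. Of 8 listed ALCL markers 7 were measured, among them TNFRSF8 (CD30), the perforin gene PRF1 and the granzyme gene GZMB, and all 7 lay above the mark on every array. Among markers of other cell types, the B-cell genes MS4A1 and CD22 ranged over 2.83 to 3.37 and 3.45 to 5.30. CD22 lay above the mark of its array in SUPM2 SP. Of the erythroid and platelet markers, 0 of 5 lay above the mark on every array of a line. PPBP in SUPM2 SP (5.93) and ALAS2 in SUDHL-1 SP 3 and MP 3 (4.97 and 4.59) lay above the mark of their array. B-cell markers above the mark on every array of a line numbered 2 to 4 of 7. Among them PAX5 had 6.65 (SP) and 6.78 (MP) in Karpas299. Over the arrays of DEL, Karpas299 and SUPM2, BLK ran from 5.28 to 6.10 and VPREB3 from 5.29 to 5.81. Stromal and epithelial markers above the mark on every array of a line numbered 3 to 4 of 8. Of 6 NK-cell markers NCR1 and NKG7 were above it in each line. Of 7 myeloid markers 2 to 4 were, with CD163 at 7.73 and 8.04 in DEL and 8.09 to 11.29 in SUDHL-1. The part of other cells in the results was not tested. In sorted bulk cells, fewer cells that express a gene and less RNA per cell cannot be told apart.

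Part of the member list lay above the background mark in every line, as did most of all genes. Members above the mark on every array of a line numbered 20 of 40 in DEL, 26 in Karpas299, 21 in SUPM2 and 21 in SUDHL-1, beside 61.8%, 60.3%, 58.5% and 58.3% of all genes. The same 15 members lay above it in all 4 lines, beside 51.0% of all genes. They were CD3D, CD7, PRKCQ, LAT, VAV1, SH2D2A, PAG1, RHOH, PTPRC, PTPN22, PTPN7, CBLB, BCL10, NFATC1 and NFATC3. The 6 members CD3E, CD3G, CD28, TRAT1, FYB1 and UBASH3A lay below it on all 12 arrays, beside 25.4% of all genes. In all, 10 members lay above it in no line, beside 32.7% of all genes. A further 15 lay above it in 1 to 3 lines, beside 16.3% of all genes. The remaining 4 members, RASGRP1, THEMIS, TXK and UBASH3B, lay above it on some arrays of a line and never on all.

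**Figure D1:**
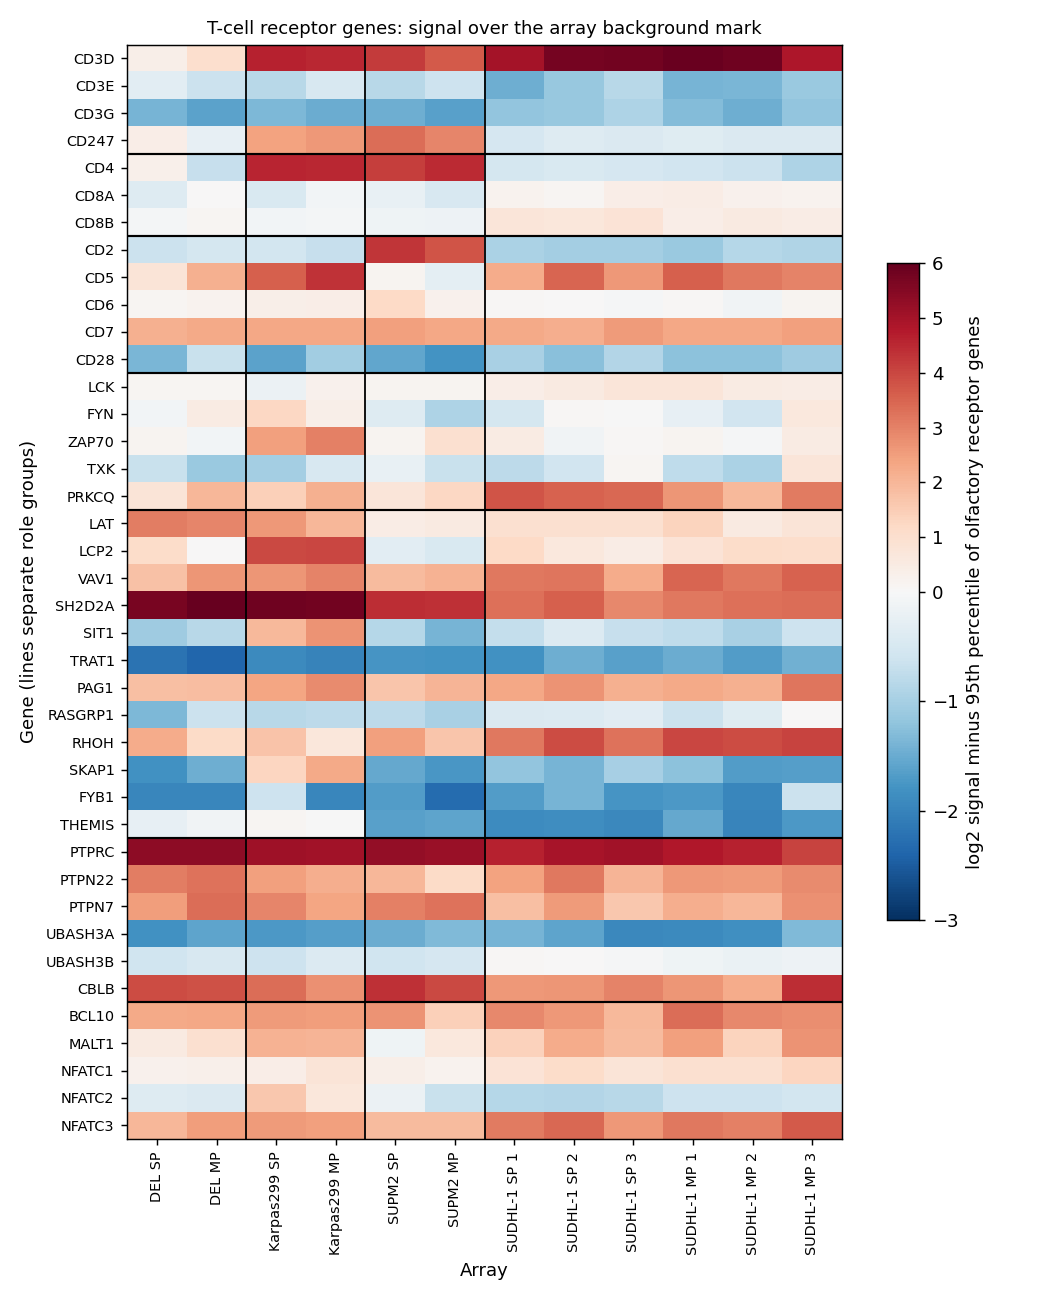
Signal of the 40 measured members on the 12 arrays, as log2 signal minus the background mark of that array (red above the mark, blue below), with rows grouped by role in the order CD3 and zeta chains, co-receptors, accessory receptors, kinases, adaptors, phosphatases and negative regulators, and NF-kB and NFAT arms. CD3E, CD3G and CD28 are blue on all 12 arrays, while CD4, CD247 and CD2 change from blue to red between lines. Within DEL, CD4 and CD247 are red on the SP array and blue on the MP array.

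Differences between lines were tested with limma on all genes, with the spread pooled over the 12 arrays and SP or MP as a term. Among DEL, Karpas299 and SUPM2, 17 of 40 members passed an adjusted p of 0.05 in at least 1 of the 3 pairs, beside 15.4% of all genes. Over all 6 pairs of lines it was 28 of 40, beside 70.2%. Members called numbered 9 for DEL minus Karpas299 (all 9 lower in DEL), 9 for DEL minus SUPM2 (4 higher and 5 lower in DEL) and 12 for Karpas299 minus SUPM2 (11 higher and 1 lower in Karpas299). The shares of all genes called were 5.20%, 8.34% and 10.7%, made up of 2.95% higher and 2.25% lower, 5.60% higher and 2.74% lower, and 6.58% higher and 4.12% lower. The median difference over the members was -0.28, -0.16 and 0.21 in these pairs, beside -0.04, -0.09 and -0.05 over all genes. The pairs share lines, so their counts are not independent of each other.

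**Figure D2:**
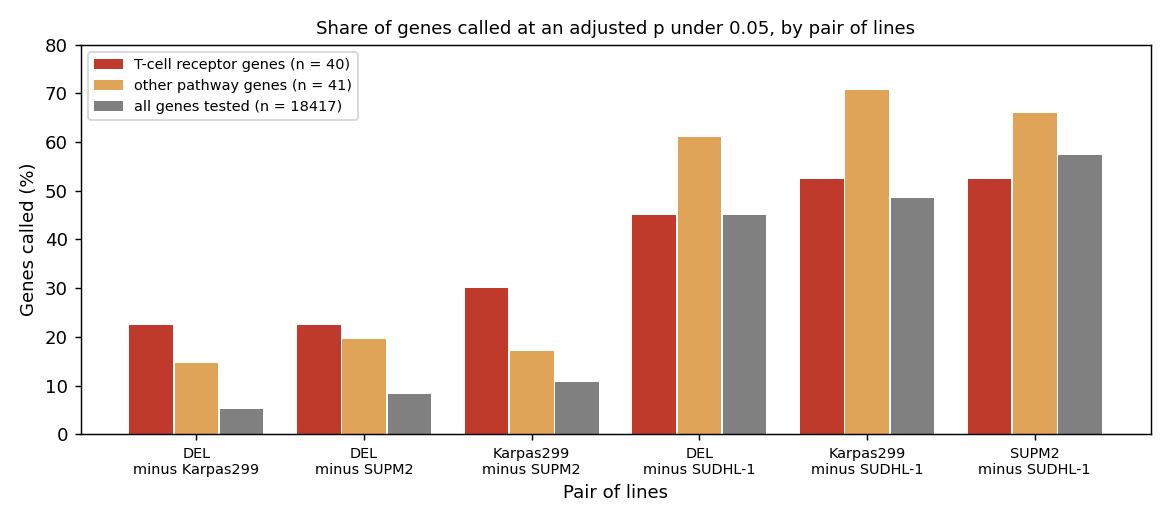
Share of genes called at an adjusted p under 0.05 (limma, in percent) for each of 6 pairs of lines, for the 40 members, 41 other genes of the pathway and all 18417 genes. For the 3 pairs without SUDHL-1 the members reach 22.5% to 30% beside 5.20% to 10.7% of all genes, and for the 3 pairs with SUDHL-1 they reach 45% to 52.5% beside 45.0% to 57.4%.

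The CD3 and zeta chains carry the signal of the receptor into the cell. CD3D, the delta chain, had signals of 5.42 (SP) and 5.94 (MP) in DEL, 9.71 and 9.55 in Karpas299 and 9.34 and 8.86 in SUPM2. In the 6 SUDHL-1 arrays it ran from 9.24 to 10.51, with a median of 10.29. DEL thus lay below every array of the other 3 lines, by 3.95 ± 0.42 (SE) against Karpas299 (limma adjusted p = 2.67e-04), 3.42 ± 0.42 against SUPM2 (6.07e-04) and 4.38 ± 0.34 against SUDHL-1 (5.53e-06). CD247, the zeta chain, had 5.45 and 4.66 in DEL, 7.51 and 7.62 in Karpas299, 8.50 and 8.11 in SUPM2, and 3.96 to 4.23 (median 4.10) in SUDHL-1. Karpas299 and SUPM2 stood apart from the other lines with no overlap. DEL was lower by 2.51 ± 0.23 than Karpas299 (adjusted p = 8.24e-05) and by 3.25 ± 0.23 than SUPM2 (9.59e-06), in limma's test. Karpas299 minus SUDHL-1 was 3.46 ± 0.19 (4.14e-07) and SUPM2 minus SUDHL-1 was 4.20 ± 0.19 (9.17e-08), while Karpas299 minus SUPM2 was not called (-0.74 ± 0.23, adjusted p = 0.0658).

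CD3E and CD3G, the epsilon and gamma chains, lay below the mark on every array. CD3E had 4.76 (SP) and 4.27 (MP) in DEL, 4.26 and 4.55 in Karpas299, 4.32 and 4.59 in SUPM2, and 3.11 to 3.82 (median 3.28) in SUDHL-1. CD3G had 3.66 (SP) and 3.30 (MP) in DEL, 3.74 and 3.52 in Karpas299, 3.68 and 3.58 in SUPM2, and 3.20 to 3.71 (median 3.25) in SUDHL-1. No pair of lines was called for CD3G (limma adjusted p = 0.0909 to 0.993), and no pair of DEL, Karpas299 and SUPM2 for CD3E (0.922 to 0.949). CD3E was called higher in these lines than in SUDHL-1 (1.19, 1.09 and 1.13), all of it below the mark. Each line thus had CD3D signal above the mark on every array without such signal for CD3E or CD3G. In DEL the CD3D signal was near the mark, at 5.42 (SP) and 5.94 (MP) beside marks of 5.07 and 4.91. It may therefore be unspecific there.

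Among the co-receptors, CD4, which binds MHC class II molecules, split the lines in the way of CD247. Its signals were 5.39 (SP) and 4.22 (MP) in DEL, 9.65 and 9.56 in Karpas299, and 9.32 and 9.66 in SUPM2. In SUDHL-1 they ran from 3.45 to 4.15, with a median of 3.99. DEL was lower than Karpas299 by 4.80 ± 0.31 and lower than SUPM2 by 4.69 ± 0.31 (limma adjusted p = 9.12e-06 and 5.69e-06). Karpas299 minus SUDHL-1 was 5.68 ± 0.25 and SUPM2 minus SUDHL-1 was 5.56 ± 0.25 (9.83e-08 and 9.39e-08). Karpas299 minus SUPM2 was 0.11 ± 0.31, less than its spread (adjusted p = 0.891). CD8A and CD8B, whose products bind MHC class I molecules, had 0 of 6 pairs called. CD8A had 4.67 (SP) and 4.94 (MP) in DEL, 4.65 and 4.94 in Karpas299, 4.93 and 4.72 in SUPM2, and 4.55 to 5.03 (median 4.86) in SUDHL-1. CD8B had 5.01 (SP) and 5.04 (MP) in DEL, 5.02 and 4.97 in Karpas299, 5.01 and 5.04 in SUPM2, and 4.85 to 5.48 (median 5.15) in SUDHL-1. Both were above the mark in SUDHL-1, where the mark itself was lower. CD8B has a near-identical copy in the genome, so its value is uncertain, and its second probe set lay at 2.27 to 3.25.

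The accessory receptors fell into a different pattern of lines. CD2, an adhesion receptor of T and NK cells, had signals of 9.42 (SP) and 8.96 (MP) in SUPM2. It had 4.42 and 4.38 in DEL, 4.54 and 4.34 in Karpas299, and 3.39 to 3.81 (median 3.55) in SUDHL-1, all below the mark. DEL and Karpas299 were lower than SUPM2 by 4.79 ± 0.20 and 4.75 ± 0.20 (limma adjusted p = 2.01e-07 and 3.14e-07), and SUPM2 minus SUDHL-1 was 5.64 ± 0.16 (3.26e-09). CD5, a receptor that dampens T-cell receptor signals, had 5.84 (SP) and 7.04 (MP) in DEL, 8.70 and 9.34 in Karpas299, 5.30 and 4.91 in SUPM2, and 6.77 to 8.11 (median 7.60) in SUDHL-1. SUPM2 was the lowest line, and its arrays did not overlap with those of any other line. Karpas299 minus SUPM2 was 3.91 ± 0.41 (limma adjusted p = 1.87e-04) and SUPM2 minus SUDHL-1 was -2.43 ± 0.33 (1.65e-04), while DEL minus SUPM2 was not called (1.33 ± 0.41, 0.0759). DEL minus Karpas299 was -2.58 ± 0.41 (0.00403), and without the DEL SP array it was -2.14 and no longer called (0.0572). CD6, a relative of CD5, was called higher in SUPM2 than in SUDHL-1 (1.32 ± 0.19, adjusted p = 2.07e-04) and had 5.18 (SP) and 5.12 (MP) in DEL, 5.43 and 5.40 in Karpas299, 6.33 and 5.44 in SUPM2, and 4.43 to 4.63 (median 4.59) in SUDHL-1. CD7, an early T-lineage antigen, had 7.18 (SP) and 7.16 (MP) in DEL, 7.42 and 7.34 in Karpas299, 7.63 and 7.52 in SUPM2, and 6.61 to 7.20 (median 6.84) in SUDHL-1. It was above the mark throughout and was not called in the 3 pairs without SUDHL-1. CD28, the main costimulatory receptor, had 3.69 (SP) and 4.25 (MP) in DEL, 3.49 and 3.98 in Karpas299, 3.59 and 3.41 in SUPM2, and 3.18 to 3.77 (median 3.39) in SUDHL-1, below the mark on every array, and 0 of 6 pairs were called.

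**Figure D3:**
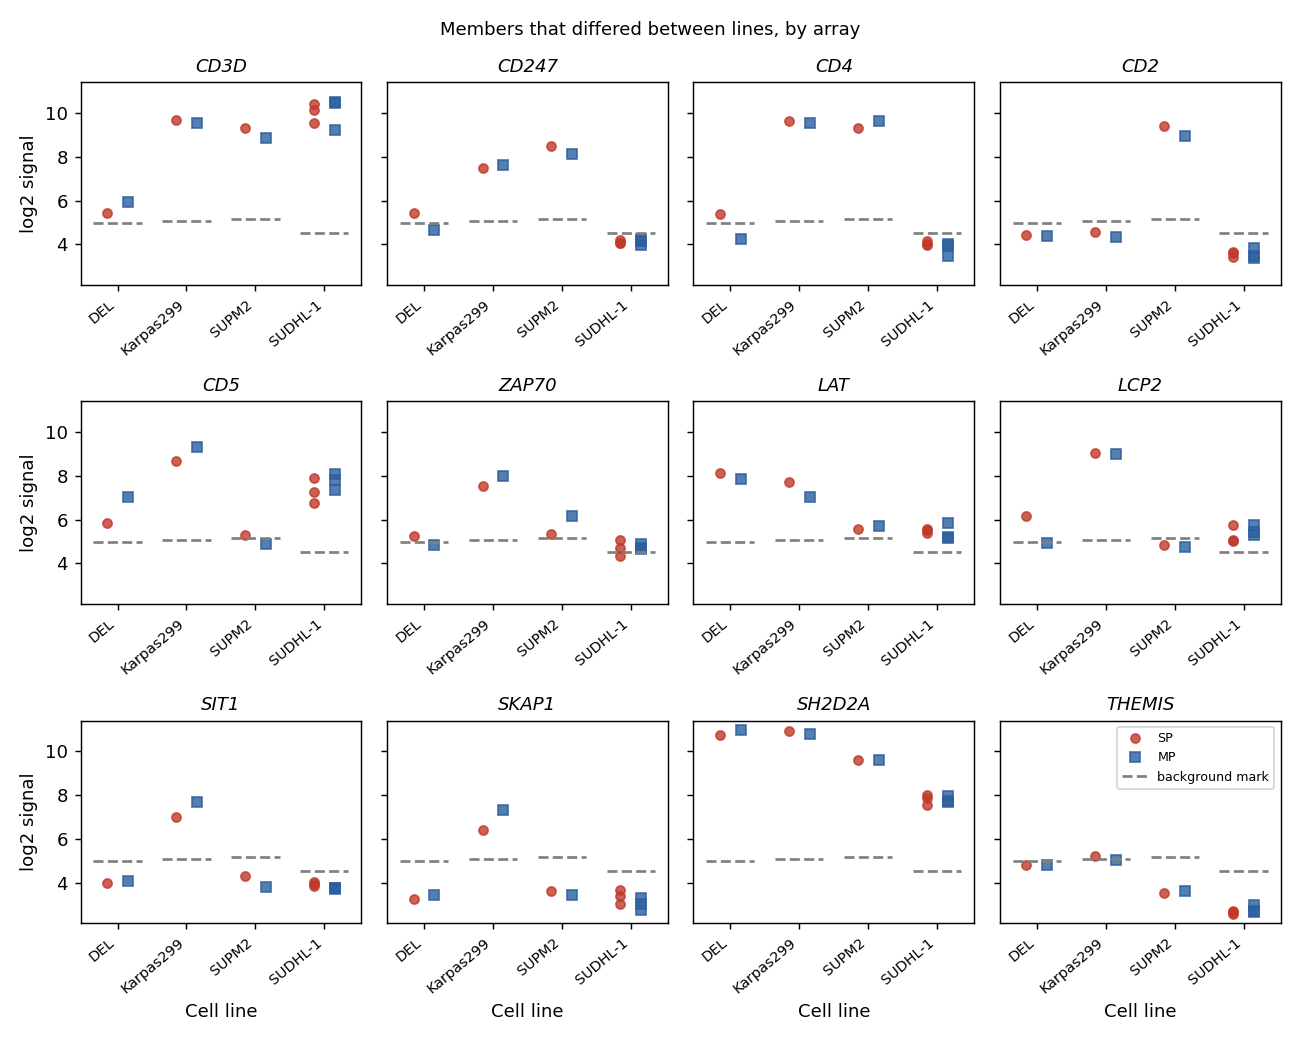
Log2 signal of 12 members that differed between lines, by line, with 1 point per array (red circles SP, blue squares MP) and the mean background mark of the line's arrays as a dashed line. CD3D is nearest the mark in DEL, CD247 and CD4 are high in Karpas299 and SUPM2, CD2 is high in SUPM2, and ZAP70, LCP2, SIT1 and SKAP1 are highest in Karpas299.

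Promoter windows are shown for the members whose called difference in a pair of DEL, Karpas299 and SUPM2 exceeded 3 on the log2 scale and that have 1 start in the RefSeq promoter table (build GRCh38.p14), since these genes were read at high signal in some lines and near background in others. Of the 40 members, 29 had a window in that table. The 250 bases before the start are given 5′ to 3′ on the gene's strand. Capitals mark matches on either strand to the core letters GGAAG of ETS factors, TGTGGT of RUNX factors and GATAA of GATA factors, where a match may overlap another.
CD3D, chr11:118342706-118342955, minus strand: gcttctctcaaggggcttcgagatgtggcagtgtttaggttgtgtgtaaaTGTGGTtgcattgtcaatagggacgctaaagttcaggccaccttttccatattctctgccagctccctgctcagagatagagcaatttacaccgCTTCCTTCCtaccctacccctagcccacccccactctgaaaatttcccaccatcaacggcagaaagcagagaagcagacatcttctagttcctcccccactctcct
CD247, chr1:167518530-167518779, minus strand: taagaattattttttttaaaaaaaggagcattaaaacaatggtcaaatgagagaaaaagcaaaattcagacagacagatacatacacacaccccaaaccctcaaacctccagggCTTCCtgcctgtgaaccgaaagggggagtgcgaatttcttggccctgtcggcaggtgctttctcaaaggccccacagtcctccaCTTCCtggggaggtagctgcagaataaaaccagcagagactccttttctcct
CD2, chr1:116754180-116754429, plus strand: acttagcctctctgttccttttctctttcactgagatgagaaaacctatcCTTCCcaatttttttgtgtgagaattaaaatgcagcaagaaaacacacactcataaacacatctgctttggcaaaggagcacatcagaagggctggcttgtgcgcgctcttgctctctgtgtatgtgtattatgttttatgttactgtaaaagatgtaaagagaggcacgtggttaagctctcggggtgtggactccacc
LCP2, chr5:170297778-170298027, minus strand: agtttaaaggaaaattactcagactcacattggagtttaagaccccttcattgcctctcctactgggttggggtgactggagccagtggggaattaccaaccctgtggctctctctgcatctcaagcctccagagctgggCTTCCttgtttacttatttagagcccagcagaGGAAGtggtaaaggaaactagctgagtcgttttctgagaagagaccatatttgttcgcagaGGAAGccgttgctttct
SIT1, chr9:35650932-35651181, minus strand: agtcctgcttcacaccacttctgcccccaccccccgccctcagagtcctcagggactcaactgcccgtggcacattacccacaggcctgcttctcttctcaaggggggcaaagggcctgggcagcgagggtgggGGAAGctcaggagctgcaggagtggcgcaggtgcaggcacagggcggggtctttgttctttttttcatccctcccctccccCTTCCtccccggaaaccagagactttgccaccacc
The ETS letters occurred in all 5 windows, as they did in 65.1% of the 35116 windows of that length in the table. The window of CD3D also held the RUNX letters once, beside 11% of all windows, and the other 4 did not. The GATA letters occurred in 0 of the 5 windows, beside 20.4% of all windows. A match is a stretch of letters only, and no binding was measured.

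Among the kinases, ZAP70, which docks on the phosphorylated CD3 and zeta tails, was highest in Karpas299. Its signals were 5.24 (SP) and 4.83 (MP) in DEL, 7.55 and 8.02 in Karpas299, 5.33 and 6.17 in SUPM2, and 4.32 to 5.07 (median 4.71) in SUDHL-1. Both Karpas299 arrays of ZAP70 lay above every other array. DEL minus Karpas299 was -2.76 ± 0.30, Karpas299 minus SUPM2 was 2.03 ± 0.30 and Karpas299 minus SUDHL-1 was 3.06 ± 0.25 (limma adjusted p = 3.17e-04, 0.00161 and 6.41e-06). LCK, the kinase that starts the signal, had 5.20 (SP) and 5.01 (MP) in DEL, 4.93 and 5.27 in Karpas299, 5.31 and 5.37 in SUPM2, and 4.82 to 5.38 (median 5.06) in SUDHL-1. These signals lay close to the mark, and 0 of 6 pairs were called. FYN, the other SRC-family kinase of the receptor, had 4.99 (SP) and 5.39 (MP) in DEL, 6.32 and 5.39 in Karpas299, 4.77 and 4.27 in SUPM2, and 4.03 to 5.0 (median 4.37) in SUDHL-1. Karpas299 minus SUPM2 was 1.34 ± 0.37 (limma adjusted p = 0.0427). That call was lost without Karpas299 SP (0.86, 0.347), SUPM2 SP (1.55, 0.0831) or SUPM2 MP (1.12, 0.226), in a fit of the 6 arrays of DEL, Karpas299 and SUPM2 (1.34, 0.0901), and also without SUDHL-1 SP 2, SP 3, MP 1 or MP 2 (1.34 each, 0.0541 to 0.0634). TXK, a TEC-family kinase, ran from 3.73 to 5.10 with 0 of 6 pairs called. PRKCQ, the protein kinase C isoform that links the receptor to NF-kB, was above the mark on each array, with 5.83 (SP) and 6.88 (MP) in DEL, 6.53 and 7.14 in Karpas299, 5.89 and 6.46 in SUPM2, and 6.64 to 8.36 (median 7.74) in SUDHL-1. No pair of DEL, Karpas299 and SUPM2 was called for it (adjusted p = 0.552 to 0.882).

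Among the adaptors, LCP2, SIT1 and SKAP1 stood far higher in Karpas299 than in the other lines. LCP2, the SLP-76 scaffold, had signals of 6.16 (SP) and 4.95 (MP) in DEL, 9.07 and 9.02 in Karpas299, 4.83 and 4.74 in SUPM2, and 5.04 to 5.77 (median 5.38) in SUDHL-1. SIT1, a transmembrane adaptor that dampens signalling, had 3.99 and 4.07 in DEL, 7.02 and 7.70 in Karpas299, 4.30 and 3.81 in SUPM2, and 3.70 to 4.01 (median 3.80) in SUDHL-1. SKAP1, an adaptor that links the receptor to integrins, had 3.26 and 3.45 in DEL, 6.39 and 7.30 in Karpas299, 3.61 and 3.45 in SUPM2, and 2.73 to 3.65 (median 3.16) in SUDHL-1. For each of these genes both Karpas299 arrays lay above all 10 others. In limma, DEL minus Karpas299 was -3.49 ± 0.36 for LCP2, -3.33 ± 0.24 for SIT1 and -3.49 ± 0.33 for SKAP1 (adjusted p = 2.21e-04, 2.13e-05 and 1.08e-04). Karpas299 minus SUPM2 was 4.26 ± 0.36, 3.31 ± 0.24 and 3.31 ± 0.33 (4.43e-05, 1.55e-05 and 1.33e-04), and Karpas299 minus SUDHL-1 was 3.65 ± 0.30, 3.53 ± 0.20 and 3.66 ± 0.27 (6.66e-06, 5.38e-07 and 3.69e-06). Between DEL, SUPM2 and SUDHL-1 none of the tested differences of SIT1 and SKAP1 was called.

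LAT, the membrane scaffold that ZAP70 phosphorylates, divided the lines differently. Its signals were 8.13 (SP) and 7.85 (MP) in DEL, 7.72 and 7.02 in Karpas299, 5.59 and 5.73 in SUPM2, and 5.14 to 5.84 (median 5.47) in SUDHL-1. DEL and Karpas299 lay above every array of the other lines. DEL minus SUPM2 was 2.34 ± 0.26, Karpas299 minus SUPM2 1.71 ± 0.26, DEL minus SUDHL-1 2.54 ± 0.21 and Karpas299 minus SUDHL-1 1.92 ± 0.21 (limma adjusted p = 2.92e-04, 0.00173, 7.72e-06 and 4.93e-05). SH2D2A, the T-cell-specific adaptor that binds LCK, was high throughout but graded, with 10.76 and 10.99 in DEL, 10.92 and 10.81 in Karpas299, 9.59 and 9.59 in SUPM2, and 7.55 to 8.02 (median 7.82) in SUDHL-1. DEL minus Karpas299 was 0.01 ± 0.19 (adjusted p = 0.994), both lines exceeded SUPM2 (1.28 and 1.27, adjusted p = 0.00200 and 0.00172), and SUPM2 minus SUDHL-1 was 1.78 ± 0.16 (8.23e-06). THEMIS, a thymocyte selection gene, had 4.82 and 4.81 in DEL, 5.20 and 5.01 in Karpas299, 3.52 and 3.62 in SUPM2, and 2.57 to 2.97 (median 2.69) in SUDHL-1. As for SH2D2A, DEL and Karpas299 lay above SUPM2, and SUPM2 above SUDHL-1, with DEL minus SUPM2 at 1.25 ± 0.17 and Karpas299 minus SUPM2 at 1.53 ± 0.17 (0.00119 and 2.81e-04), but was at or below the mark on 11 of 12 arrays.

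VAV1, PAG1 and RHOH were above the mark on every array, and RASGRP1, FYB1 and TRAT1 were below it on nearly all. VAV1, the RAC exchange factor, had 6.83 (SP) and 7.54 (MP) in DEL, 7.76 and 7.98 in Karpas299, 7.03 and 7.31 in SUPM2, and 6.87 to 7.99 (median 7.78) in SUDHL-1, with 0 of 6 pairs called. PAG1, which tethers the inhibitory kinase CSK, had 6.89 (SP) and 6.75 (MP) in DEL, 7.46 and 7.85 in Karpas299, 6.80 and 7.26 in SUPM2, and 6.78 to 7.58 (median 6.85) in SUDHL-1, with no call among DEL, Karpas299 and SUPM2. RHOH, a GTPase that helps ZAP70 reach the receptor, had 7.30 (SP) and 6.05 (MP) in DEL, 6.83 and 5.68 in Karpas299, 7.63 and 6.86 in SUPM2, and 7.72 to 8.57 (median 8.38) in SUDHL-1. Every SUDHL-1 array lay above every array of the other lines for RHOH. RASGRP1, the RAS exchange factor, ran from 3.72 to 4.41 over the 12 arrays. FYB1, the adaptor ADAP, had 3.12 (SP) and 2.95 (MP) in DEL, 4.48 and 3.07 in Karpas299, 3.47 and 2.89 in SUPM2, and 2.71 to 3.73 (median 2.87) in SUDHL-1. TRAT1, an adaptor associated with the receptor chains, had 2.85 (SP) and 2.54 (MP) in DEL, 3.19 and 3.02 in Karpas299, 3.37 and 3.40 in SUPM2, and 2.76 to 3.02 (median 2.98) in SUDHL-1. DEL minus SUPM2 was called for TRAT1 (-0.69 ± 0.17, adjusted p = 0.0300), with all its signals below the mark. That call was lost without DEL MP (-0.53, 0.272), SUPM2 SP (-0.73, 0.0889) or SUPM2 MP (-0.65, 0.129), in the fit of 6 arrays (-0.69, 0.122) and after quantile normalization (-0.50, 0.0870). The second probe set of FYB1 lay at 2.61 to 4.16.

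Of the phosphatases and negative regulators, 4 of 6 lay above the mark on all 12 arrays. PTPRC (CD45), the phosphatase that keeps LCK ready to act, had 10.45 (SP) and 10.27 (MP) in DEL, 10.16 and 10.04 in Karpas299, 10.43 and 10.38 in SUPM2, and 8.46 to 9.69 (median 9.29) in SUDHL-1. There was no call among DEL, Karpas299 and SUPM2 (adjusted p = 0.609 to 0.943). CBLB, a ubiquitin ligase that limits activation, had 8.97 (SP) and 8.73 (MP) in DEL, 8.45 and 7.75 in Karpas299, 9.51 and 9.14 in SUPM2, and 6.89 to 8.81 (median 7.17) in SUDHL-1. Of the SUDHL-1 arrays MP 3 held the highest value, and the other 5 ended at 7.60. PTPN22, which dephosphorylates LCK and ZAP70, had 8.14 (SP) and 8.19 (MP) in DEL, 7.58 and 7.20 in Karpas299, 7.15 and 6.34 in SUPM2, and 6.70 to 7.59 (median 7.18) in SUDHL-1. DEL minus SUPM2 was 1.42 ± 0.30 (limma adjusted p = 0.0153). That call was lost without DEL SP (1.53, 0.0654), DEL MP (1.31, 0.133) or SUPM2 MP (1.01, 0.128). PTPN7, which acts on MAP kinases, had 7.57 (SP) and 8.27 (MP) in DEL, 8.02 and 7.40 in Karpas299, 8.19 and 8.45 in SUPM2, and 6.26 to 7.12 (median 6.68) in SUDHL-1, without a call among DEL, Karpas299 and SUPM2. UBASH3A and UBASH3B, suppressors of receptor signalling, were near or below the mark. UBASH3A had 3.25 (SP) and 3.32 (MP) in DEL, 3.38 and 3.36 in Karpas299, 3.65 and 3.88 in SUPM2, and 2.60 to 3.18 (median 2.83) in SUDHL-1, and UBASH3B ran from 4.24 to 4.70 over the 12 arrays.

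In the NF-kB and NFAT arms, MALT1 and NFATC2 had their highest line means in Karpas299. MALT1, a protease of NF-kB signalling, had 5.59 (SP) and 5.89 (MP) in DEL, 7.17 and 7.04 in Karpas299, 5.01 and 5.83 in SUPM2, and 5.94 to 7.06 (median 6.59) in SUDHL-1. Karpas299 minus SUPM2 was 1.69 ± 0.36 (limma adjusted p = 0.0122). NFATC2, a calcium-driven transcription factor, had 4.67 and 4.48 in DEL, 6.71 and 5.69 in Karpas299, 4.97 and 4.54 in SUPM2, and 3.55 to 4.05 (median 3.83) in SUDHL-1. Both Karpas299 arrays of NFATC2 lay above all others. DEL minus Karpas299 was -1.62 ± 0.29, Karpas299 minus SUPM2 was 1.44 ± 0.29 and Karpas299 minus SUDHL-1 was 2.39 ± 0.24 (0.00805, 0.00914 and 2.57e-05). Without the Karpas299 SP array the first 2 of these were -1.11 and 0.93 and MALT1 stood at 1.41, and all 3 calls were lost (0.0676, 0.0878 and 0.120). The DEL minus Karpas299 call of NFATC2 also ended without DEL SP (-1.65, 0.0616) or DEL MP (-1.60, 0.0681), its call against SUPM2 without SUPM2 MP (1.28, 0.0736), and that of MALT1 without SUPM2 SP (1.39, 0.101). BCL10, the partner of MALT1, had 7.33 (SP) and 7.22 (MP) in DEL, 7.67 and 7.51 in Karpas299, 7.83 and 6.63 in SUPM2, and 6.61 to 7.88 (median 7.30) in SUDHL-1. NFATC3 had 7.08 (SP) and 7.44 (MP) in DEL, 7.63 and 7.46 in Karpas299, 7.04 and 7.10 in SUPM2, and 7.25 to 8.07 (median 7.71) in SUDHL-1, and NFATC1 ran from 5.20 to 5.80 over the 12 arrays. None of these was called among DEL, Karpas299 and SUPM2.

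In the pairs with SUDHL-1, 45.0%, 48.5% and 57.4% of all genes were called for DEL, Karpas299 and SUPM2, with median differences of 0.28, 0.31 and 0.37 over all genes. Those called higher were 33.8%, 36.6% and 42.5%, and those called lower 11.1%, 11.9% and 14.9%. In total calls the members stood close to that background, at 18 of 40, 21 of 40 and 21 of 40. In DEL 13 were higher and 5 lower, in Karpas299 20 and 1, and in SUPM2 15 and 6. The split of Karpas299 leaned further to higher calls than that of all genes. The median difference over the members was 0.16, 0.61 and 0.21. When the arrays were quantile normalized again, the splits were 10 higher and 13 lower, 16 and 4, and 11 and 11. With each array centred on its median, which moved the median over all genes to -0.18, -0.14 and -0.10, they were 6 and 14, 14 and 4, and 10 and 12. The count for DEL was 10 without DEL SP and 11 without DEL MP, and that for SUPM2 was 13 without SUPM2 SP. Calls that held under every alternative that tested the gene numbered 6, 12 and 10. In DEL these were CD3D (lower) and CD3E, LAT, SH2D2A, THEMIS and PTPRC (higher, PTPRC by 1.15 ± 0.23, adjusted p = 0.00257). In Karpas299 they were CD247, CD3E, CD4, CD2, ZAP70, LAT, LCP2, SH2D2A, SIT1, SKAP1, THEMIS and NFATC2, all higher. In SUPM2 they were CD247, CD3E, CD4, CD2, CD6, SH2D2A, THEMIS, PTPRC and PTPN7 (higher, PTPN7 by 1.63 ± 0.27, adjusted p = 4.94e-04) and CD5 (lower). Of these, CD3E and THEMIS, and CD2 in Karpas299, were near or below the mark. The alternative that left out dim genes removed CD3E, THEMIS and SKAP1, so it did not test them.

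Other genes of the pathway, 41 of 48 listed and measured, were nearly all above the mark. They numbered 40 in DEL, 41 in Karpas299, 39 in SUPM2 and 36 in SUDHL-1, beside 61.8%, 60.3%, 58.5% and 58.3% of all genes. Between lines, DEL minus Karpas299 had 1 higher and 5 lower, DEL minus SUPM2 4 and 4, and Karpas299 minus SUPM2 6 and 1. These were 14.6%, 19.5% and 17.1% of the 41, beside 5.20%, 8.34% and 10.7% of all genes. Against SUDHL-1, DEL had 22 higher and 3 lower, Karpas299 24 and 5, and SUPM2 20 and 7. These were 61.0%, 70.7% and 65.9% of the 41, beside 45.0%, 48.5% and 57.4% of all genes. VAV3, an exchange factor of the VAV family, had 3.53 (SP) and 3.05 (MP) in DEL, 5.43 and 5.08 in Karpas299 and 3.75 and 3.94 in SUPM2. DEL minus Karpas299 was -1.97 ± 0.20 and Karpas299 minus SUPM2 was 1.41 ± 0.20 (limma adjusted p = 1.86e-04 and 0.00127). MAP4K1, a kinase that restrains SLP-76, had 5.58 and 5.09 in DEL, 7.93 and 7.06 in Karpas299 and 6.44 and 7.03 in SUPM2, with DEL minus Karpas299 at -2.16 ± 0.29 (0.00142). Against SUDHL-1, INPP5D, the lipid phosphatase SHIP1, was the gene of smallest p for Karpas299 (4.65 ± 0.26, 5.38e-07) and SUPM2 (4.70 ± 0.26, 3.61e-07). It ran from 7.08 to 8.95 in DEL, Karpas299 and SUPM2, against 3.52 to 3.90 in SUDHL-1. The GTPase gene RAC2 stood at 10.96 to 11.54 in the first 3 lines and at 7.40 to 8.43 in SUDHL-1. In SP minus MP, 0 of the 41 genes were called.

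No SP minus MP difference of a member passed the adjusted threshold. In SUDHL-1, limma called 0 of 40 members and 0% of all 18417 genes, and the unadjusted p was under 0.05 for 2 of 40 members, beside 3.13% of all genes (1.66% higher and 1.47% lower in SP cells). The members' median SP minus MP difference was -0.04, beside 0 over all genes. Of the members 14 of 40 were higher in SP cells, beside 9194 of all 18417 genes. SP and MP arrays did not overlap for 6 of 40 members, beside 7.16% of all genes. Those with SP above MP were CD3G, PRKCQ and SIT1, and those with SP below MP were VAV1, RHOH and NFATC2. Over the 4 lines, with 1 difference per line, limma called 0 of 40 and 0% of all genes, and 1 of 40 had an unadjusted p under 0.05, beside 4.91% (2.54% higher and 2.37% lower). The line medians over the members were 0.03 in DEL, 0.07 in Karpas299, 0.10 in SUPM2 and -0.04 in SUDHL-1. Those over all genes were 0.02, -0.01, 0.07 and 0.

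**Figure D4:**
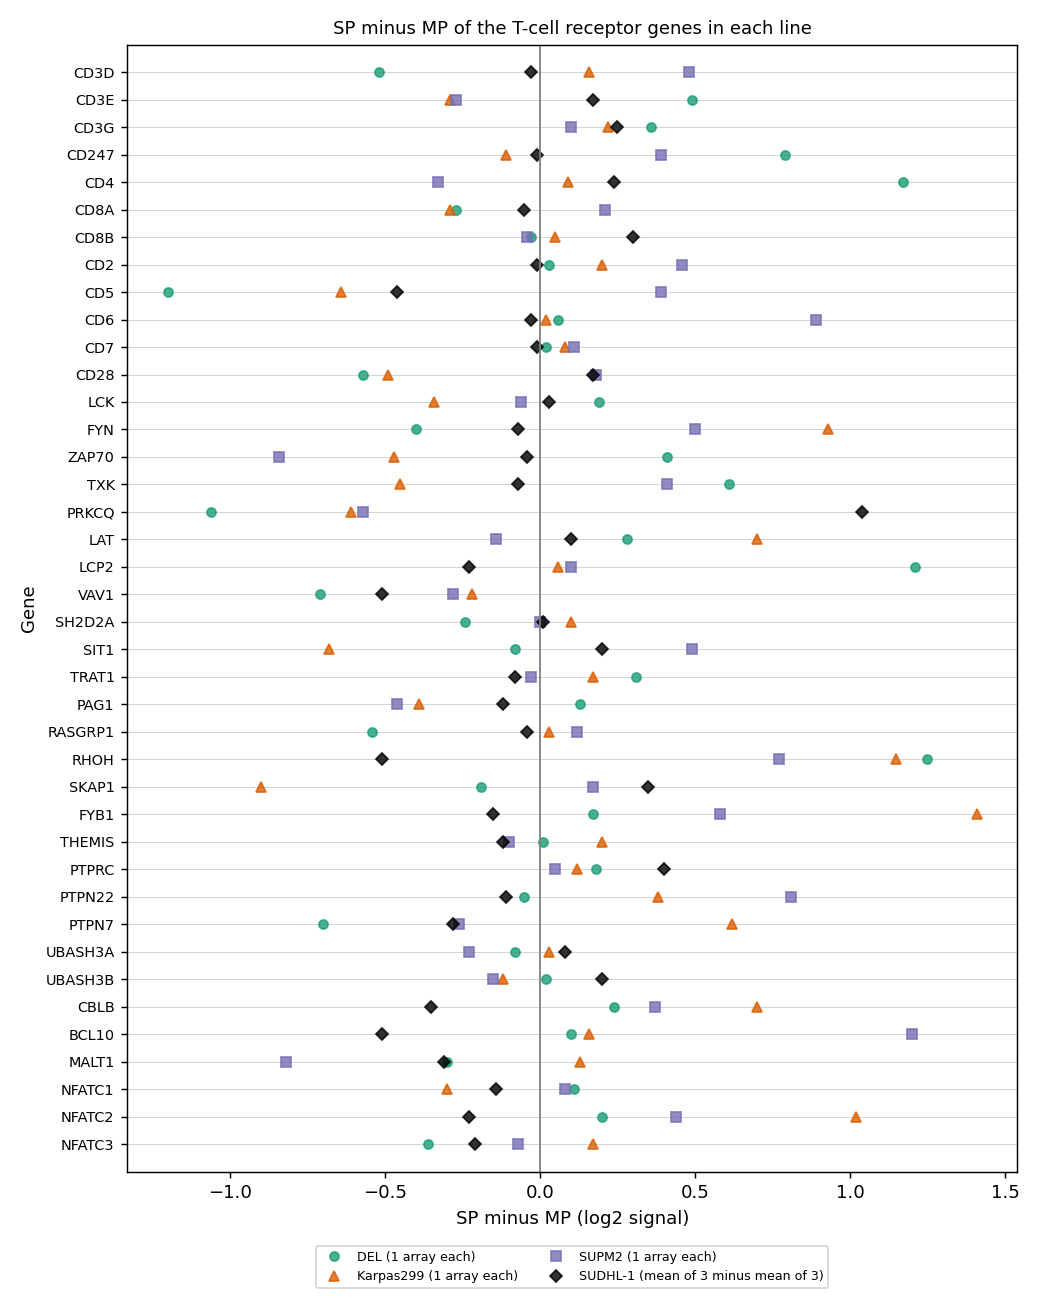
SP minus MP difference in log2 signal of the 40 measured members in each of the 4 lines (1 SP and 1 MP array for DEL, Karpas299 and SUPM2, means of 3 for SUDHL-1). The 4 points of VAV1 lie below 0 and those of CD3G and PTPRC above it. PRKCQ and RHOH have SUDHL-1 on the opposite side of 0 from the other 3 lines. So do CD2, CD6, CD7, LCP2, FYB1, CBLB, BCL10 and NFATC2. The share of all genes with either pattern was not counted.

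PRKCQ had the smallest p of the members in SUDHL-1, with 8.36, 7.98 and 8.09 on the SP arrays and 7.17, 6.64 and 7.50 on the MP arrays. The SP values lay above all MP values, with a difference of 1.04 ± 0.24 (limma adjusted p = 1.00). In the other lines SP minus MP was -1.06 in DEL, -0.61 in Karpas299 and -0.57 in SUPM2. RHOH ran the other way. In SUDHL-1 it had 7.72, 8.35 and 7.92 on SP arrays and 8.52, 8.57 and 8.42 on MP arrays (-0.51 ± 0.19, limma adjusted p = 1.00), while SP minus MP was 1.25 in DEL, 1.15 in Karpas299 and 0.77 in SUPM2. A SUDHL-1 difference below 0 with the other 3 lines above 0 was also found for LCP2, FYB1, CBLB, BCL10 and NFATC2. The same held, by -0.01 to -0.03 in SUDHL-1, for CD2, CD6 and CD7. The share of all genes with an opposite sign in SUDHL-1 was not counted. Set against the other 3 lines together, the SUDHL-1 value minus theirs was 1.78 ± 0.32 for PRKCQ and -1.56 ± 0.26 for RHOH in limma's interaction test. Neither passed the adjustment over all genes (adjusted p = 0.738 for both), and 0% of all genes did. At an unadjusted p under 0.05 the interaction held 4 of 40 members, beside 3.59% of all genes (1.62% higher and 1.97% lower), the others being NFATC2 (-0.78 ± 0.25) and BCL10 (-1.0 ± 0.41).

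VAV1 had a lower signal in SP than in MP cells in 4 of 4 lines, with differences of -0.71 in DEL, -0.22 in Karpas299, -0.28 in SUPM2 and -0.51 in SUDHL-1. The average was -0.43 ± 0.23 (SD, n = 4 lines), limma adjusted p = 0.918. In SUDHL-1 its SP arrays had 7.72, 7.64 and 6.87 and its MP arrays 7.99, 7.85 and 7.91. CD3G and PTPRC had positive differences in 4 of 4 lines, averaging 0.23 ± 0.11 and 0.19 ± 0.15 (SD, n = 4 lines, limma adjusted p = 0.918 for each). How many of all genes keep the same sign in all 4 lines was not counted. The shared signs of VAV1, CD3G and PTPRC are therefore not set apart from the background. CD3G stayed below the mark throughout. CD5 averaged -0.48 ± 0.66 and FYB1 0.50 ± 0.67 (SD, n = 4 lines), and their lines fell on both sides of 0. Differences over 1 on the log2 scale between single arrays occurred for 5 members in DEL (2.44% of all genes), 3 in Karpas299 (3.20%) and 1 in SUPM2 (6.59%). In SUDHL-1, where means of 3 arrays are compared and the share is not comparable, 1 member (PRKCQ) passed 1, beside 0.755% of all genes. In DEL they included CD4 (1.17), LCP2 (1.21) and CD5 (-1.20), with 1 SP and 1 MP array and so no replicate check.

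In SUDHL-1 the ALCL marker list nearly touched without overlap between the populations, with a mean over its 7 genes of 9.80 to 9.98 on SP arrays and 9.99 to 10.3 on MP arrays. Of the 7 genes, 0 were called and 0 had an unadjusted limma p under 0.05. How often a list of this size separates was not counted, and the list's part in the results was not tested. The lists of other cell types overlapped. The mean over the 7 measured myeloid markers was 5.29 to 5.48 on SP arrays and 5.41 to 5.83 on MP arrays, and that over the 6 NK-cell markers 4.75 to 4.92 and 4.78 to 4.93. The B-cell list had 4.12 to 4.44 on SP arrays and 4.25 to 4.43 on MP arrays. Among arrays of SUDHL-1, SP 3 and MP 3 had the lowest correlation with each other (0.965 over all genes), and the difference of PRKCQ ran from 0.81 to 1.24 when 1 array was left out.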

How the data were processed

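RNA from the sorted cells was purified with a Qiagen robot, amplified with NuGEN Pico WTA chemistry and biotin-labelled, per the labels' protocols, and read on Affymetrix arrays. The authors deposited log2 signals per probe set. They used RMA, according to the submitters' processing notes, which give no version. Joint treatment of the 12 arrays was not given in the sources used here. Arrays carry no read depth, so their number limits the precision.

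All 12 columns were used as deposited. Of 33297 probe sets, 19460 had 1 gene symbol in the platform annotation, 1754 had several and 12083 had none, and only the first kind named a gene. The probe set with the highest mean stood for a gene, which left 18417 genes (769 with several probe sets). Of the 19460 probe sets, 19429 matched a RefSeq gene by Entrez identifier.

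Tests used limma 3.58.1 (lmFit and eBayes, R 4.3.3), two-sided, with Benjamini-Hochberg adjustment over all 18417 genes and a threshold of 0.05. SP minus MP was fitted on the 6 SUDHL-1 arrays, and over lines as 1 difference per line against 0 (SUDHL-1 replicates averaged first). The interaction with SUDHL-1 and the 6 pairs of lines used all 12 arrays. Errors of fitted differences are standard errors. The fits were run on simulated independent genes with planted changes, as a check of the code. The power to call an SP minus MP difference is not reported here. The members, lists, tests and naming rule were chosen with earlier results of these data known. All members could be named. Values by array or range were given for members past the threshold, for up to 4 of widest range of line means in each role group and for the 5 of smallest p in each direction of SP minus MP. Other pathway genes were named among the 4 of smallest p in a comparison. SUDHL-1 replicate numbers are not said to pair the sorts, so no block was used. Alternatives left out dim genes, rescaled the arrays, averaged probe sets, changed the variance model, the arrays or terms in the fit or the background mark, and left out arrays or lines.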

Additional observations from a re-analysis of the deposited data

Results flagged for a closer look

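For CD6, the SP minus MP difference of SUPM2, 0.89, lay far from those of DEL (0.06), Karpas299 (0.02) and SUDHL-1 (-0.03), by Dixon's test of 4 values at the 95% level. The SUPM2 signals were 6.33 in SP and 5.44 in MP cells, with 1 array each. The test treats the 4 values as equally precise, but that of SUDHL-1 rests on means of 3 arrays. Of the lines with single arrays, SUPM2 also had the largest share of all genes with a difference over 1 (6.59%, beside 2.44% in DEL and 3.20% in Karpas299). Among 40 members tested this way, chance flags about 1 in 20.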

How the results depend on the processing

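For the members, SP minus MP gave 0 calls in SUDHL-1, over the 4 lines and in the interaction under every alternative run, among them the replicate block (0 calls), each array or line left out, and the fits added after the data were seen (each SUDHL-1 array left out of the 4-line fit, and both arrays numbered 3 left out of the SUDHL-1 fit). Same-numbered SP and MP arrays had correlations of deviations of 0, -0.08 and -0.13, so the numbers were not taken as pairs. Called members among DEL, Karpas299 and SUPM2 numbered 7 to 10, 8 to 9 and 9 to 13 with 1 array left out. Against SUDHL-1 they numbered 10 to 19 for DEL, 15 to 23 for Karpas299 and 13 to 22 for SUPM2, with 10 without DEL SP, 11 without DEL MP and 13 without SUPM2 SP. Over the 6 pairs, 51 of 90 calls of a member held under every alternative that tested the gene. TRAT1 in SUPM2 minus SUDHL-1 reversed to -0.04 when arrays were centred on their medians, where the centring shifts all genes of a line together. Members above the mark numbered 14 to 29 in DEL, 23 to 31 in Karpas299, 16 to 29 in SUPM2 and 16 to 26 in SUDHL-1 when the mark was moved to the 90th or 99th percentile or to the lowest 25% of genes. The dim-gene filter kept 31 of 40 members. It removed CD3E, SKAP1 and THEMIS among others, so their calls were not tested under it. Signals near the mark limit what can be said of CD3E, CD3G, CD28, LCK and THEMIS, and of CD3D in DEL.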
